A study of Mus musculus with 16 samples.

Results

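The genes described here are 10 members of the BCL2 family, the proteins that decide whether the mitochondrion of a cell is opened to start apoptosis. They were taken by name from the deposited count table, in which they are 10 of 54456 gene rows, and the names were chosen with earlier results of these data known. They comprise 6 pro-survival genes (Bcl2, Bcl2l1, Mcl1 and the mouse Bcl2a1 copies Bcl2a1a, Bcl2a1b and Bcl2a1d) and 4 pro-death genes (Bcl2l11, Bbc3, Pmaip1 and Bax). All 10 passed the filter on low counts and were tested among 15675 genes.

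RNA was sequenced in bulk from T cells of OT-I mice, which carry a transgenic T cell receptor for an ovalbumin peptide and therefore hold mostly CD8 T cells. The 4 groups of 4 libraries were cells from visceral adipose tissue (VAT) of mice on a high-fat diet (HFD VAT), from lymph nodes of mice on that diet (HFD LN), from VAT of lean mice (lean VAT) and from lymph nodes of lean mice (lean LN). The high-fat diet had 60% of its calories from fat and was fed for 8 weeks, and every group carried the OT-I transgene. The labels call the cells fresh in one place, while the study text has them cultured overnight before the sort, and the effects of culture were not tested. All column headings contain Neg-OVA, a term left unexplained. Batches and dates were not analysed here, and the labels do not say whether a library is 1 animal or a pool.

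Pro-survival members such as BCL2, BCL-XL (Bcl2l1), MCL1 and A1 (Bcl2a1) hold the pore formers BAX and BAK in check. The BH3-only proteins BIM (Bcl2l11), PUMA (Bbc3) and NOXA (Pmaip1) bind the pro-survival members and release the pore formers. In CD8 T cells, signals from IL-7 and IL-15 sustain Bcl2 and Mcl1, NF-kB and antigen receptor signals raise Bcl2a1 and Bcl2l1, and loss of cytokine raises Bcl2l11 and Bbc3 through FOXO factors.

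Totals were 40212388 to 51726642 counts per library in HFD VAT, 42444506 to 54019116 in HFD LN, 42993946 to 63617074 in lean VAT and 49323455 to 65957407 in lean LN. Levels are CPM, with each count divided by its library's TMM-scaled total, and 3 counts correspond to 0.0437 to 0.0803 CPM. HFD VAT 1, HFD VAT 3 and lean VAT 1 stood apart: 11.4%, 11.5% and 13.3% of the genes whose median over the rest of the group reached 10 CPM had 3 counts or fewer there, against 0.818% to 5.45% in the other 13 libraries. The summed level of 8 T cell markers was 9941 to 10800 CPM in HFD VAT, 8125 to 9277 CPM in HFD LN, 8940 to 11280 CPM in lean VAT and 8055 to 9795 CPM in lean LN. Within that sum the CD8 chains ran in opposite directions. Cd8a averaged 2077 CPM in HFD VAT and 665 CPM in HFD LN, and 1840 CPM in lean VAT and 718 CPM in lean LN. Cd8b1 averaged 1228 CPM in HFD VAT and 2072 CPM in HFD LN, and 1368 CPM in lean VAT and 2058 CPM in lean LN. The 10 B cell markers summed to 188 to 406 CPM in HFD VAT, 2120 to 3090 CPM in HFD LN, 113 to 252 CPM in lean VAT and 1710 to 3820 CPM in lean LN, with Fcmr at 0 in both VAT groups. The 10 macrophage markers summed to 33.4 to 131 CPM in HFD VAT, 0.0171 to 2.43 CPM in HFD LN, 27.4 to 78.7 CPM in lean VAT and 0.0437 to 6.14 CPM in lean LN, with Cd14 and C1qa at 0 in both VAT groups, C1qc also at 0 in HFD VAT, and 7 and 5 markers at 0 in HFD LN and lean LN. The macrophage sum in VAT was mostly Cd68 (60.9 ± 47.8 CPM in HFD VAT and 38.8 ± 27.0 CPM in lean VAT), with Adgre1 at most 0.0067 CPM on average. The 5 NK cell markers summed to 467 to 621 CPM in HFD VAT, 13.8 to 123 CPM in HFD LN, 272 to 492 CPM in lean VAT and 20.9 to 105 CPM in lean LN. The NK sum was mostly Klre1 in VAT (463 ± 82.7 CPM in HFD VAT and 369.5 ± 71.6 CPM in lean VAT), while Eomes averaged 25.2 CPM in HFD VAT and 44.9 CPM in HFD LN, and Ncr1 was at 0 in both HFD groups. The B cell, macrophage and NK cell sums separated VAT from LN on both diets, and their part in the results was not tested. In bulk RNA, fewer cells that express a gene and less RNA per cell cannot be told apart.

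The Bcl2a1 copies are shown first because their reads are hard to separate. The coding sequences of Bcl2a1a, Bcl2a1b and Bcl2a1d in the GENCODE M21 annotation of mouse build GRCm38 each have 519 bases. Identity was 97.9% between Bcl2a1a and Bcl2a1b (11 bases differ), 98.7% between Bcl2a1a and Bcl2a1d (7 bases) and 98.8% between Bcl2a1b and Bcl2a1d (6 bases). Of 12 coding positions that vary among the copies, 7 lie within the first 100 coding bases. Those bases are printed here from the start codon, 5′ to 3′ on the gene's strand, with the 7 variable positions in capitals. They lie in coding exons on chromosome 9 at chr9:88957051-88957150 (plus strand), chr9:89199360-89199459 (plus strand) and chr9:88731620-88731719 (minus strand).
Bcl2a1a: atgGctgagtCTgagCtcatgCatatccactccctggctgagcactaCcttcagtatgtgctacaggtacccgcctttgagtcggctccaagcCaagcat
Bcl2a1b: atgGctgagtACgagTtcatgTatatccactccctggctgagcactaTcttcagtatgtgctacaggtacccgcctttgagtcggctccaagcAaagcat
Bcl2a1d: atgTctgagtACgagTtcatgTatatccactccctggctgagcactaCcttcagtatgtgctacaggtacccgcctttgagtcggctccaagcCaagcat
Of the 31-base words of each annotated transcript, 21.7% in Bcl2a1a, 27.3% in Bcl2a1b and 10.9% in Bcl2a1d occurred in no other copy. How the deposited counts divided reads between the copies is therefore uncertain, and the sum of the 3 copies is reported beside each. The build behind the count table is not given with certainty, so these coordinates belong to the annotation and not to the table.

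The first question the design poses is how T cells from VAT compare with T cells from LN on the high-fat diet. A1 and PUMA transcripts moved in opposite directions: all 3 Bcl2a1 copies rose 7.70- to 10.3-fold in HFD VAT relative to HFD LN, and Bbc3 fell to an 11.9 times lower level. Of the 10 members, 3 rose and 1 fell (4.56% of all genes tested were called, 2.68% as higher and 1.88% as lower). The 3 that rose are the near-identical copies, and with these as 1 row, 1 of 8 rows rose and 1 fell. A gene is called where edgeR's quasi-likelihood F-test gives it an adjusted p (Benjamini-Hochberg over all genes tested) under 0.05. The median log2 fold change was 1.84 over the members and -0.10 over all genes tested. In 6 of the 10 members no library of one tissue overlapped the other tissue's range on HFD, as in 15.2% of all genes tested. With the copies as 1 row this held for 4 of 8 rows, and the median log2 fold change was 0.81.

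Bcl2a1d had 99.0, 118, 56.1 and 104 CPM in HFD VAT 1 to 4 and 15.04, 12.9, 14.95 and 5.998 CPM in HFD LN 1 to 4. It had 150.03, 77.2, 75.6 and 69.6 CPM in lean VAT and 9.91, 11.999, 9.05 and 8.01 CPM in lean LN. Every VAT library lay above every LN library, and lean VAT 1 was the highest of all. Bcl2a1a had 22.9, 30.8, 28.3 and 36.1 CPM in HFD VAT and 2.90, 3.57, 3.19 and 1.81 CPM in HFD LN, against 52.5, 21.9, 27.2 and 23.5 CPM in lean VAT and 2.21, 2.89, 3.06 and 6.24 CPM in lean LN. Bcl2a1b had 21.97, 34.0, 45.2 and 47.7 CPM in HFD VAT and 3.68, 6.91, 3.52 and 3.00 CPM in HFD LN, against 49.0, 26.6, 36.2 and 24.2 CPM in lean VAT and 1.78, 5.39, 6.58 and 5.42 CPM in lean LN. For these copies too the VAT and LN ranges did not overlap on either diet, while the 2 diets overlapped within each tissue. On HFD the log2 fold change of VAT over LN was 2.95 (SE 0.43, adjusted p = 0.0007092) for Bcl2a1d, 3.36 (SE 0.61, adjusted p = 0.004518) for Bcl2a1a and 3.12 (SE 0.62, adjusted p = 0.008553) for Bcl2a1b. Among lean mice the value was 3.26 (SE 0.43, adjusted p = 0.000461) for Bcl2a1d, 3.12 (SE 0.61, adjusted p = 0.009294) for Bcl2a1a and 2.83 (SE 0.61, adjusted p = 0.01814) for Bcl2a1b.

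The summed copies had 144, 182, 129.6 and 188 CPM in HFD VAT 1 to 4 and 21.6, 23.4, 21.7 and 10.8 CPM in HFD LN 1 to 4. They had 252, 126, 139 and 117 CPM in lean VAT and 13.9, 20.3, 18.7 and 19.7 CPM in lean LN. The lowest VAT library thus lay above the highest LN library on both diets. The means were 161 ± 28.7 CPM in HFD VAT and 19.4 ± 5.77 CPM in HFD LN, an 8.31-fold difference, and 158 ± 62.7 CPM in lean VAT and 18.1 ± 2.90 CPM in lean LN, an 8.73-fold difference (SD, n = 4 each). The exact two-sided permutation p was 0.0286 for each tissue comparison, the smallest that 4 against 4 libraries can give, and 0.0571 after Benjamini-Hochberg adjustment over 4 comparisons. With the sum as 1 row of the edgeR fit the folds were 8.31 (adjusted p = 8.05e-05) on HFD and 8.74 (adjusted p = 8.85e-05) in lean mice. Bcl2a1d took 43.3% to 68.8% of the sum in HFD VAT, 55.2% to 69.6% in HFD LN, 54.4% to 61.4% in lean VAT and 40.7% to 71.3% in lean LN, so that its share overlapped across all 4 groups. The macrophage and NK cell marker sums, mostly Cd68 and Klre1 in VAT, ran the same way as the Bcl2a1 sum, higher in VAT, and their part in the difference was not tested. Bcl2a1c, a further copy, was at 1.58 CPM or less in every library and was not called.

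**Figure D1:**
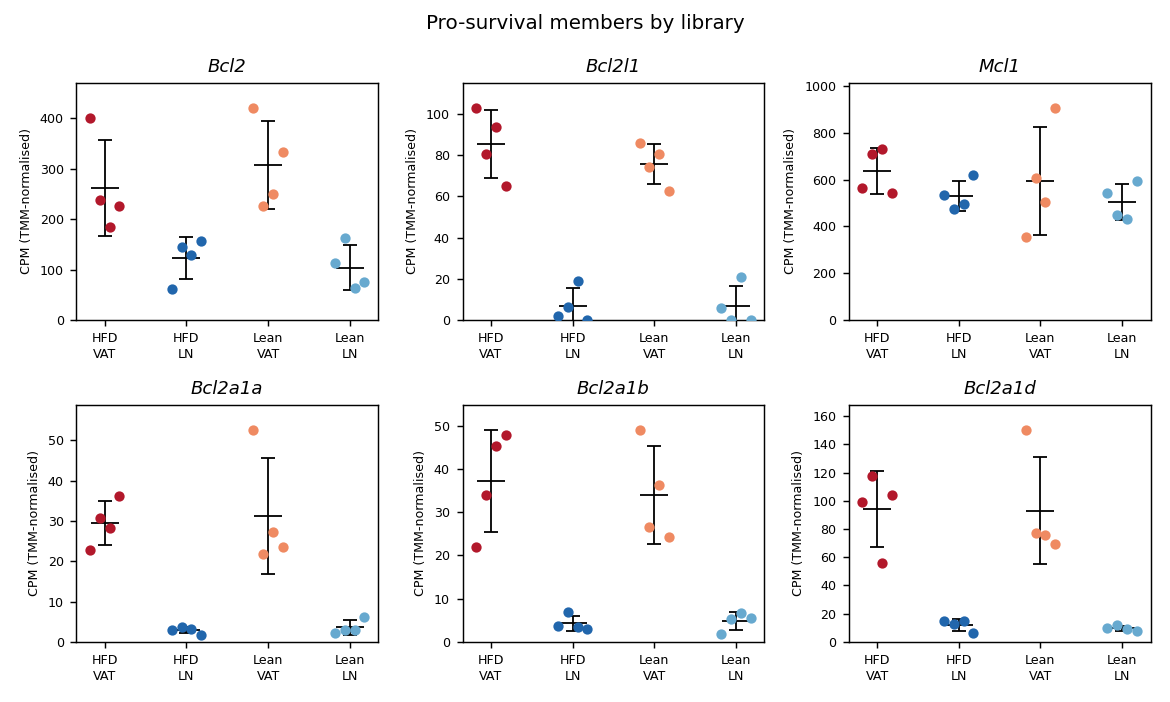
Normalised level (CPM, linear axes from 0) of the 6 pro-survival members in each library by group, with points for libraries and bars for mean ± SD (n = 4). Bcl2, the 3 Bcl2a1 copies and Bcl2l1 lie higher in every VAT library than in any LN library of the same diet, while Mcl1 overlaps across the 4 groups.

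Bbc3, which encodes the BH3-only killer PUMA, was the only member that fell in a tissue comparison. It had 10.1, 15.2, 5.76 and 13.7 CPM in HFD VAT 1 to 4 and 61.8, 183, 135 and 151 CPM in HFD LN 1 to 4. It had 52.1, 18.3, 22.9 and 14.1 CPM in lean VAT and 133, 82.4, 128 and 99.3 CPM in lean LN. Every VAT library was below every LN library, and the highest VAT library was lean VAT 1. From low to high, the groups stood in the order HFD VAT (11.2 ± 4.18 CPM), lean VAT (26.8 ± 17.2 CPM), lean LN (111 ± 24.0 CPM) and HFD LN (132.5 ± 51.1 CPM), and the libraries of the first 2 overlapped, as did those of the last 2. The log2 fold change of VAT over LN was -3.57 (SE 0.50, adjusted p = 0.0006221) on HFD and -2.04 (SE 0.47, adjusted p = 0.02933) in lean mice, where the level was 4.12 times lower. The B cell marker sum ran the same way as Bbc3, higher in LN, and its part in the difference was not tested. On HFD the 4 called members stayed past the threshold under every alternative run, with adjusted p of at most 0.0476.

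Bcl2, the survival factor that cytokine signals maintain in resting T cells, had 402, 237, 185 and 227 CPM in HFD VAT 1 to 4 and 61.9, 144, 128 and 156 CPM in HFD LN 1 to 4. The ranges did not overlap, yet the difference did not pass over all genes tested (log2 fold change 1.10, SE 0.37, edgeR adjusted p = 0.1164), and it passed only with DESeq2 (adjusted p = 0.0305). In lean mice Bcl2 had 420.4, 227, 251 and 333 CPM in VAT and 114, 162, 63.0 and 75.4 CPM in LN, again without overlap, and rose 2.97-fold (log2 fold change 1.57, SE 0.37, adjusted p = 0.03331). That call was lost without any 1 of lean LN 4 (adjusted p = 0.1234), lean LN 3 (0.1146), lean VAT 1 (0.0875), lean LN 1 (0.0848), lean VAT 4 (0.0830), lean VAT 3 (0.0540) or HFD LN 3 (0.0506), and without HFD VAT 1, HFD VAT 3 and lean VAT 1 together (0.0826). It was also lost with no filter (0.0801), only the groups compared (0.0652) and the replicate block (0.0636), in all 11 of 26 alternatives.

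Bcl2l1, which encodes BCL-XL, was present in every VAT library and nearly missing from some LN libraries. It had 103, 80.5, 93.5 and 64.9 CPM in HFD VAT 1 to 4 and 1.93, 6.32, 18.9 and 0.0213 CPM in HFD LN 1 to 4. The lean VAT libraries had 85.8, 74.2, 80.6 and 62.8 CPM and those of lean LN had 5.92, 0.0539, 21.0 and 0 CPM. The LN counts were 113, 322, 860 and 1 on HFD and 406, 3, 1087 and 0 in lean mice. Relative to the group mean, LN libraries of 1 group thus spread far more widely than VAT libraries did. The SD was 125% of the mean in HFD LN and 147% in lean LN, against 19.3% in HFD VAT and 13% in lean VAT. The lowest VAT library, at 62.8 CPM, was above the highest LN library, at 21.0 CPM. The log2 fold change was 3.65 (SE 1.77, adjusted p = 0.2902) on HFD and 3.49 (SE 1.76, adjusted p = 0.4284) in lean mice, so neither difference was called by edgeR despite the separation. The lean difference passed with limma voom (adjusted p = 0.0339).

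Mcl1, a short-lived pro-survival protein that T cells need throughout life, overlapped across all groups. Its level was 565, 709.9, 732 and 542 CPM in HFD VAT 1 to 4 and 532, 474, 494 and 620.0 CPM in HFD LN 1 to 4. The log2 fold change of VAT over LN was 0.27 on HFD (95% interval of the fold 0.854 to 1.69, adjusted p = 0.6581) and 0.23 in lean mice (95% interval of the fold 0.836 to 1.66, adjusted p = 0.8625). Lean VAT spread more widely, at 356, 608, 502 and 905 CPM, than lean LN, at 540.35, 449, 432 and 594 CPM.

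Bcl2l11, which encodes BIM, the main killer of T cells that lose cytokine, was called in lean mice and not on HFD. It had 133, 37.5, 70.9 and 156 CPM in HFD VAT 1 to 4 and 71.2, 51.6, 68.3 and 88.2 CPM in HFD LN 1 to 4, so that HFD VAT libraries lay on both sides of the LN range (log2 fold change 0.51, 95% interval of the fold 0.762 to 2.66, adjusted p = 0.6346). Lean VAT libraries had 188, 146, 165 and 71.5 CPM and lean LN libraries 32.1, 51.2, 54.9 and 34.1 CPM, without overlap, and Bcl2l11 rose 3.31-fold (log2 fold change 1.73, SE 0.43, adjusted p = 0.04541). The call held in leave-one-out fits only without HFD VAT 2 (adjusted p = 0.0202), HFD VAT 4 (0.0446) or lean VAT 4 (0.0291), and was lost without any other single library (0.0534 to 0.1497). It was also lost with RLE scaling (0.0545), no filter (0.1215), only the groups compared (0.0523) and the replicate block (0.1124). Without HFD VAT 1, HFD VAT 3 and lean VAT 1 together it was lost too (0.1255). In all, 18 of 26 alternatives lost it. The difference between the diets' tissue effects was tested directly and did not pass (log2 -1.22, SE 0.59, adjusted p = 0.8303).

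Pmaip1, which encodes NOXA, an antagonist of MCL1 and A1, was scattered within groups. It had 149, 4.78, 37.1 and 46.5 CPM in HFD VAT 1 to 4 and 0, 37.5, 0 and 2.34 CPM in HFD LN 1 to 4. Levels were 0, 32.5, 41.5 and 26.7 CPM in lean VAT and 12.9, 26.5, 22.1 and 11.3 CPM in lean LN. Groups overlapped in both tissue comparisons, and the intervals of the VAT over LN fold were wide, 0.256 to 139 on HFD and 0.0705 to 27.1 in lean mice. The pore former Bax had 171, 221, 229 and 270.5 CPM in HFD VAT 1 to 4 and 165, 163, 186.5 and 157 CPM in HFD LN 1 to 4, and 425, 164, 218 and 195 CPM in lean VAT and 189.8, 227, 172 and 167 CPM in lean LN. Bax overlapped between tissues on both diets and had a log2 fold change of 0.41 in each, with 95% intervals of the fold of 0.903 to 1.95 on HFD (adjusted p = 0.4682) and 0.900 to 1.95 in lean mice (adjusted p = 0.6212).

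**Figure D2:**
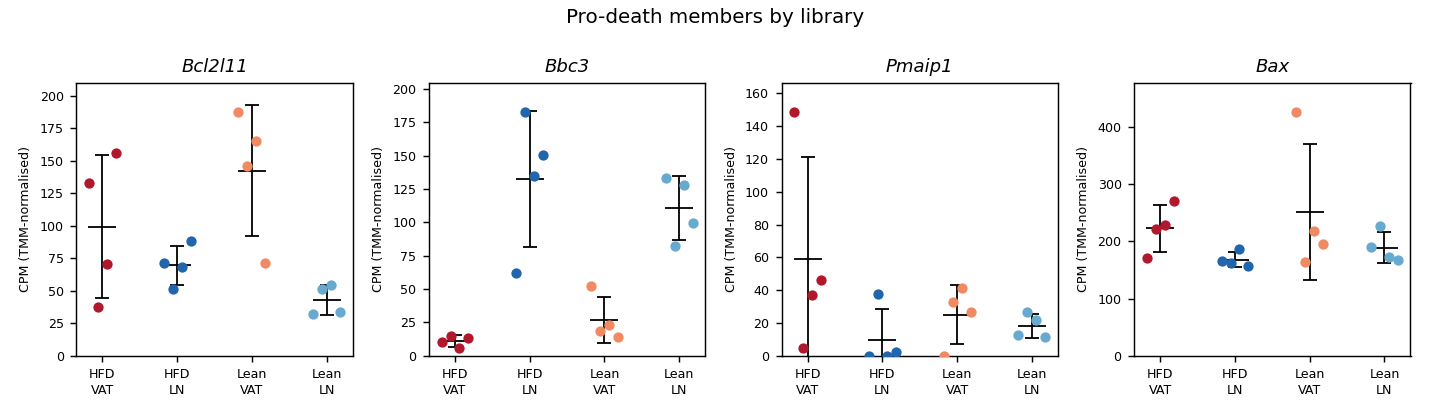
Normalised level (CPM, linear axes from 0) of the 4 pro-death members in each library by group, with points for libraries and bars for mean ± SD (n = 4), cut at 0 where the SD exceeds the mean. Bbc3 lies lower in every VAT library than in any LN library, Bcl2l11 separates the tissues in lean mice, and Pmaip1 includes 3 libraries at 0.

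The same tissue contrast in lean mice called 6 members, of which 5 rose (Bcl2, the 3 Bcl2a1 copies and Bcl2l11) and Bbc3 fell, where 3.04% of all genes tested were called (2.12% as higher and 0.919% as lower). No overlap between tissues was seen for 7 of the 10 members, against 12.9% of all genes tested, and the members' median log2 fold change was 1.65, against -0.0029 over all genes tested. With the copies as 1 row, 3 of 8 rows rose and 1 fell, 5 of 8 did not overlap, and the median was 1.02. The number of members called was 7 with limma voom and 2 with no filter on low counts. It was 1 with only the lean libraries in the fit and 2 to 6 when 1 library was left out. The count was 2 without lean LN 1, 2 without lean LN 4, 3 without lean LN 3 and 3 without lean VAT 3. Bcl2a1d was past the threshold in each of these fits. Without HFD VAT 1, HFD VAT 3 and lean VAT 1 together, 4 members were called on HFD and 4 in lean mice. The Bbc3 call in lean mice was lost without lean VAT 3 (adjusted p = 0.0968), lean VAT 2 (0.0912), lean VAT 4 (0.0905), lean LN 1 (0.0802), lean LN 3 (0.0777) or lean LN 4 (0.0609), and the Bcl2a1b call without lean LN 4 (0.0585) or lean LN 1 (0.0578). All of these fits kept the direction.

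**Figure D3:**
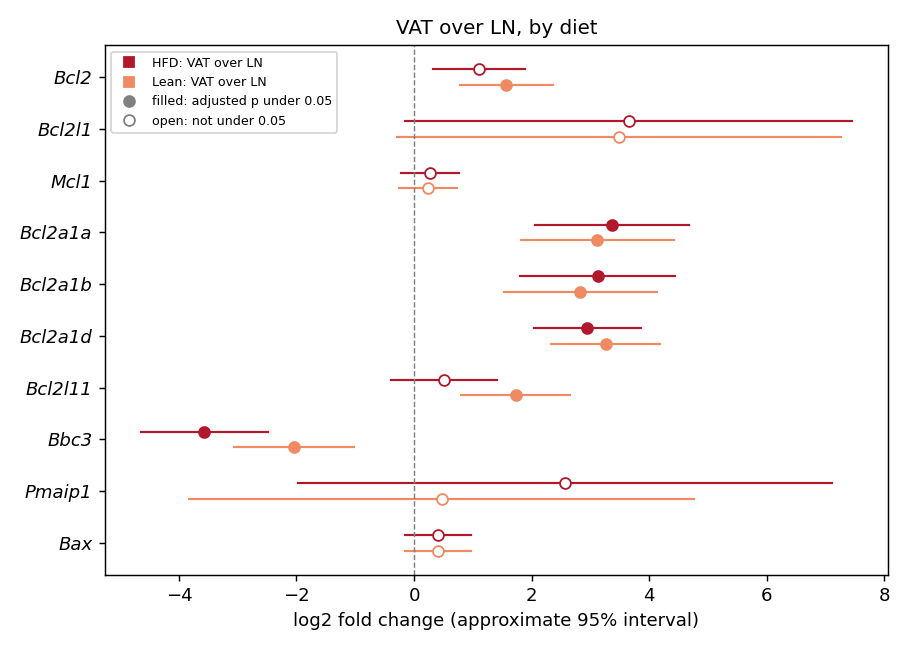
Log2 fold change of VAT over LN for each member on HFD (upper, dark) and in lean mice (lower, light), with approximate 95% intervals derived from the quasi-likelihood F statistic and filled points where the adjusted p is under 0.05. The Bcl2a1 copies lie near 3 on both diets, Bbc3 lies at -3.57 and -2.04, and Mcl1 and Bax lie near 0.

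As a description of the balance within a library, the ratio of Bcl2 to Bbc3 CPM, which is not corrected for gene length and so is compared between libraries only, was 15.7 to 39.7 in HFD VAT and 0.788 to 1.03 in HFD LN. It was 8.07 to 23.6 in lean VAT and 0.494 to 1.97 in lean LN. Every VAT library lay above every LN library, which follows from the separations of Bcl2 and Bbc3 given above and is no further result. The ratio of Bcl2 to Bcl2l11, in contrast, was 1.45 to 6.33 in HFD VAT, 0.870 to 2.79 in HFD LN, 1.52 to 4.66 in lean VAT and 1.15 to 3.54 in lean LN, and overlapped throughout. Across the 16 libraries the log2(CPM + 1) levels of Bcl2a1a and Bcl2a1b had a Pearson r of 0.97, those of Bcl2a1a and Bcl2a1d 0.96, and those of Bcl2a1a and Bbc3 -0.84. These points share tissue and library, so the values only describe the separation by tissue.

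Diet was the second question, asked within each tissue with the libraries used above, so the comparisons share samples with the tissue ones. In VAT no member was called between HFD and lean, where 0.0574% of all genes tested were called, and all 10 members overlapped between the diets (3.22% of all genes tested did not). Of the members, 1 had an unadjusted p under 0.05, as had 1266 of all genes tested, and DESeq2 and limma voom called 0 members. That gene was Bbc3, at 11.2 ± 4.18 CPM in HFD VAT and 26.8 ± 17.2 CPM in lean VAT (SD, n = 4 each; log2 fold change -1.26, SE 0.46, 95% interval of the fold 0.209 to 0.830). Its edgeR quasi-likelihood p was 0.01638 and its adjusted p 0.5025. The log2 fold change was -0.72 without lean VAT 1, at 52.1 CPM the highest lean VAT library, and -0.34 without HFD VAT 1, HFD VAT 3 and lean VAT 1 together. Only HFD VAT 2, at 15.2 CPM, reached above the lowest lean VAT library, at 14.1 CPM. For the other members the 95% interval of the HFD over lean fold in VAT was 0.764 to 1.51 for Mcl1, 0.606 to 1.31 for Bax, 0.498 to 1.46 for Bcl2 and 0.373 to 1.30 for Bcl2l11. It was 0.562 to 1.82 for Bcl2a1d, 0.412 to 2.17 for Bcl2a1a and 0.470 to 2.55 for Bcl2a1b, and too wide to bound a change for Bcl2l1 (0.105 to 12.1) and Pmaip1 (0.116 to 47.9). The sum of the Bcl2a1 copies was 1.02-fold that of lean VAT in HFD VAT (exact permutation p = 0.914).

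In LN no member was called between HFD and lean, as was no other gene (0% of all genes tested), and no member separated the diets (2.26% of all genes tested did). No member had an unadjusted p under 0.05 in edgeR, against 529 of all genes tested, and neither DESeq2 nor limma voom called a member. Among the genes tested they called 233 and 3. The largest log2 fold change among the 8 members with counts above 3 in every library was 0.70 for Bcl2l11 (69.8 ± 15.01 CPM in HFD LN and 43.1 ± 11.7 CPM in lean LN, SD, n = 4 each; 95% interval of the fold 0.867 to 3.03, adjusted p = 1). The intervals were 0.689 to 2.03 for Bcl2, 0.607 to 2.36 for Bbc3, 0.747 to 1.48 for Mcl1 and 0.604 to 1.30 for Bax, and 0.697 to 2.26 for Bcl2a1d. A test of whether the diet effect in VAT differed from that in LN called no member (0.0191% of all genes tested were called). Bbc3 alone among the members had an unadjusted p under 0.05 in that quasi-likelihood test (log2 -1.52, SE 0.65, edgeR adjusted p = 0.7561), and its value was -0.98 without lean VAT 1 and -0.60 without HFD VAT 1, HFD VAT 3 and lean VAT 1. Of all genes tested 965 had one, and DESeq2 and limma voom called 0 members.

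**Figure D4:**
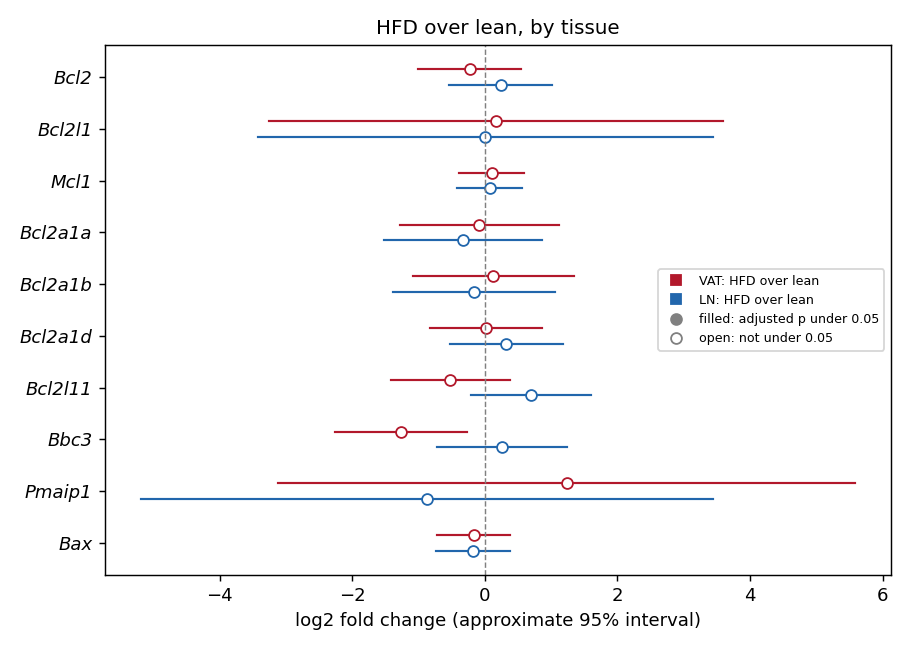
Log2 fold change of HFD over lean for each member in VAT (upper, red) and in LN (lower, blue), with approximate 95% intervals. All points are open because no member passed the threshold, and among the 20 intervals only that of Bbc3 in VAT lies wholly on one side of 0.

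The other genes of the pathway were described through 5 lists chosen with earlier results known. Of 14 other BCL2 family genes, 7 were tested and edgeR called none in any comparison, with median log2 fold changes of VAT over LN of -0.10 on HFD and 0.72 in lean mice. At an unadjusted p under 0.05 they numbered 0 on HFD and 2 in lean mice, where DESeq2 called 1 and limma voom 2. The second pore former, Bak1, was low, at 1.99 ± 2.44 CPM in HFD VAT and 0.468 ± 0.936 CPM in HFD LN, and at 4.91 ± 6.56 CPM in lean VAT with 0 counts in every lean LN library (not called, edgeR adjusted p = 0.7567 and 0.1322; named after its values were seen). Of 17 genes of the mitochondrial death machinery, all tested, 2 rose in VAT on HFD (2.68% of all genes tested did) and 1 in lean mice (2.12% of all genes tested), and none fell. The list's median log2 fold change was -0.01 on HFD and -0.36 in lean mice, against -0.10 and -0.0029 over all genes tested. Cycs, which encodes cytochrome c, had 199.7, 239, 314 and 288 CPM in HFD VAT and 52.8, 85.0, 66.8 and 45.2 CPM in HFD LN, and rose 4.17-fold (adjusted p = 0.0001696). In the lean groups Cycs averaged 191 ± 50.1 CPM in VAT and 53.2 ± 4.66 CPM in LN and rose 3.58-fold (adjusted p = 0.000516). Birc3, which encodes the inhibitor of apoptosis cIAP2, rose 3.46-fold on HFD, at 225 ± 59.4 CPM in HFD VAT and 65.1 ± 32.0 CPM in HFD LN (adjusted p = 0.04546), while its level was 168 ± 76.6 CPM in lean VAT and 110 ± 42.0 CPM in lean LN (adjusted p = 0.7201).

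Among 19 upstream survival genes, all tested, 4 rose and 2 fell in VAT on HFD, and 5 rose and 2 fell in lean mice, where 4.56% and 3.04% of all genes tested were called. The list's median log2 fold change was 1.17 on HFD and 1.10 in lean mice, against -0.10 and -0.0029 over all genes tested. The cytokine receptor chains were split. Il2rb, the beta chain shared by the IL-2 and IL-15 receptors, had 1144, 1400.1, 749.6 and 1060.4 CPM in HFD VAT 1 to 4 and 318, 247, 286 and 379 CPM in HFD LN 1 to 4, and rose 3.54-fold (adjusted p = 0.000139). In the lean groups Il2rb averaged 1216 ± 139 CPM in VAT and 240.0 ± 56.2 CPM in LN and rose 5.07-fold (adjusted p = 3.18e-05). Il2rg, the common gamma chain, rose 2.25-fold on HFD (adjusted p = 3.45e-05) and 1.66-fold in lean mice (adjusted p = 0.001775). Il7r, the IL-7 receptor alpha chain, had 274, 546, 517 and 500.2 CPM in HFD VAT 1 to 4 and 1584, 1239.6, 1543 and 1677 CPM in HFD LN 1 to 4, and was 3.29 times lower (adjusted p = 0.0004478). It averaged 379 ± 88.4 CPM in lean VAT and 1386 ± 299 CPM in lean LN and was 3.66 times lower (adjusted p = 0.0003417). Jak1, the kinase both receptors use, was 1.96 times lower on HFD (adjusted p = 0.007254) and 2.44 times lower in lean mice (adjusted p = 0.0011).

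The remaining rises in that list, named after their values were seen, were Pim2, Nfkb2 and, in lean mice, Il2ra. Pim2, a survival kinase, averaged 228 ± 83.7 CPM in HFD VAT and 76.8 ± 31.9 CPM in HFD LN (adjusted p = 0.01742), and 288 ± 17.9 CPM in lean VAT and 66.0 ± 22.2 CPM in lean LN (adjusted p = 0.002648). Nfkb2, an NF-kB subunit, averaged 388 ± 122 CPM in HFD VAT and 49.7 ± 33.6 CPM in HFD LN (adjusted p = 0.007336), and 346 ± 52.6 CPM in lean VAT and 53.9 ± 42.1 CPM in lean LN (adjusted p = 0.01588). Il2ra, the IL-2 receptor alpha chain, had 23.0 ± 15.3 CPM in lean VAT and no count in any lean LN library (adjusted p = 0.01273). Foxo1, which drives Il7r and homing genes in resting T cells, was also named after its values were seen. It had lower values in VAT without overlap on both diets but was not called. Foxo1 averaged 76.1 ± 47.0 CPM in HFD VAT and 204.5 ± 54.7 CPM in HFD LN (edgeR adjusted p = 0.6198). Its level was 95.4 ± 65.7 CPM in lean VAT, with a lowest library of 0 CPM, and 252 ± 66.8 CPM in lean LN (edgeR adjusted p = 0.7756). Foxo3 had higher means in VAT, with overlap, and was not called. Its means were 20.2 ± 18.2 CPM in HFD VAT and 1.83 ± 2.30 CPM in HFD LN. In the lean groups they were 13.3 ± 12.6 CPM in VAT and 3.60 ± 6.01 CPM in LN. Of 15 genes of the p53 list, through which Bbc3, Pmaip1 and Bax can be induced, 13 were tested and none was called in either tissue comparison, with median log2 fold changes of 0.34 on HFD and 0.08 in lean mice. On either diet 1 of them had an unadjusted p under 0.05, DESeq2 called 1, and limma voom called 0 on HFD and 2 in lean mice. Trp53 itself averaged 208 ± 68.1 CPM in HFD VAT and 145 ± 37.1 CPM in HFD LN (adjusted p = 0.2888). Of 8 tested genes for turnover and partners of BCL2 proteins, edgeR called none between tissues, none had an unadjusted p under 0.05, and DESeq2 called 1 on HFD and limma voom 0. No gene of these 5 lists was called by edgeR in a diet comparison or in the difference between diet effects. Limma voom called 0 of them there, and DESeq2 and the unadjusted p reached at most 2 genes of a list.

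**Figure D5:**
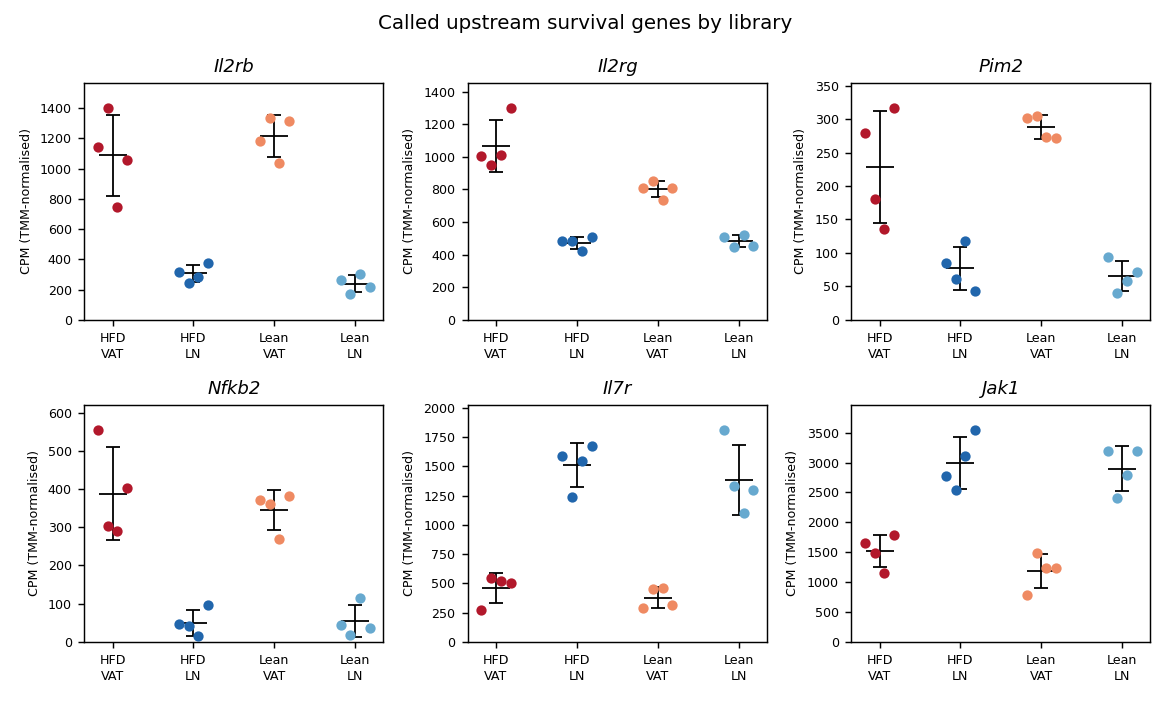
Normalised level (CPM, linear axes from 0) of 6 upstream survival genes called in both tissue comparisons, in each library by group, with points for libraries and bars for mean ± SD (n = 4). Il2rb, Il2rg, Pim2 and Nfkb2 lie higher, and Il7r and Jak1 lower, in every VAT library than in any LN library of the same diet.

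Genes with the most similar pattern over the 16 libraries were ranked by Pearson r of log2(CPM + 1) among up to 9226 genes with a mean of at least 5 CPM. For Bcl2a1a they were Lgals1 (r = 0.98), Junb (0.98) and Ube2l6 (0.97), for Bcl2a1b Odc1 (0.97), Gpr171 (0.97) and Shisa5 (0.96), and for Bcl2a1d Ube2l6 (0.98), H2-K1 (0.98) and Isg15 (0.98). Within the 8 VAT libraries the r of Bcl2a1d was 0.88 with H2-K1 and within the 8 LN libraries 0.21. With Ube2l6 no r within LN could be computed for Bcl2a1a or Bcl2a1d. The r of Bcl2a1b with Gpr171 was 0.10 within VAT and 0.90 within LN, and with Shisa5 0.24 and 0.915. For Bbc3 the most similar genes were Tango6 (0.95), Tbc1d10c (0.94) and Pdlim4 (0.94), and Tbc1d10c had r = 0.95 within VAT and -0.29 within LN. For Bcl2 they were Oas1b (0.93), Il18rap (0.89) and Psmb2 (0.89), and for Bcl2l11 Selenos (0.84), Ap2m1-ps (0.82) and Gpr34 (0.82). Other pairs stayed closer within both tissues, such as Bcl2l11 with Selenos (0.92 within VAT and 0.66 within LN), Bcl2 with Psmb2 (0.89 and 0.76), Bcl2a1a with Lgals1 (0.76 and 0.61) and Bcl2a1d with Isg15 (0.70 and 0.64). The libraries fall into the 2 tissues, which the values over all 16 share.

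RefSeq promoters (250 bases before and 50 after the start site, build GRCm38.p6) were matched for 9 of the 10 members, in 14 windows, of which Bbc3 and Bcl2l1 have 3 each and Bcl2l11 has 2. All 14 windows were searched on both strands for NF-kB (GGG and CC with any 5 bases between), STAT (TTC and GAA with 3 between) and FOXO (GTAAACA) letters. Interferon response (GAAA and GAAA with 2 between), AP-1 (TGANTCA) and p53 (CATG and CATG with 6 between) letters were searched too. In this order the letters occur in 50.8%, 8.30%, 3.65%, 3.44%, 7.81% and 0.712% of 32851 promoters in the table. The windows printed, of 3 called members, were chosen because they held an AP-1 match (Bcl2a1d) or a FOXO match (Bbc3 and Bcl2l11). Other windows of Bbc3 and Bcl2l11 held no FOXO match and are not printed. The letters TGAATCA, an AP-1 match, were found once in the promoter of each of the 3 called Bcl2a1 copies, which are near-identical there too, so these are not independent matches. The promoter of Bcl2a1d is printed with these letters in capitals (chromosome 9, chr9:88731801-88732100, minus strand, bases -114 to -108 with the start site as 0).
Bcl2a1d promoter: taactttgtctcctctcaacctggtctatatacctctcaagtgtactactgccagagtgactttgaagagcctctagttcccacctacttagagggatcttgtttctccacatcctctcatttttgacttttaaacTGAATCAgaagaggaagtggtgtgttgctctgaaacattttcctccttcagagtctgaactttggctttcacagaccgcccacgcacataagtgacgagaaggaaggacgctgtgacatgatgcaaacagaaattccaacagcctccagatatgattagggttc
A FOXO match was found in 2 of the 14 windows, 1 promoter of Bbc3 (chromosome 7, chr7:16310011-16310310, plus strand, bases -167 to -161, as TGTTTAC on the printed strand) and 1 promoter of Bcl2l11 (chromosome 2, chr2:128125788-128126087, plus strand, bases -227 to -221). Both are printed with the match in capitals.
Bbc3 promoter: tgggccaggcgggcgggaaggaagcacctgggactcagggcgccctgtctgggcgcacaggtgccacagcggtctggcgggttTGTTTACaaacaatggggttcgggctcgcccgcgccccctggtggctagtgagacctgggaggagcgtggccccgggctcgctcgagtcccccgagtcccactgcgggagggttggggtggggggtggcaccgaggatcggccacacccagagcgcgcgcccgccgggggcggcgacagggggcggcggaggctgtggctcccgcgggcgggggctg
Bcl2l11 promoter: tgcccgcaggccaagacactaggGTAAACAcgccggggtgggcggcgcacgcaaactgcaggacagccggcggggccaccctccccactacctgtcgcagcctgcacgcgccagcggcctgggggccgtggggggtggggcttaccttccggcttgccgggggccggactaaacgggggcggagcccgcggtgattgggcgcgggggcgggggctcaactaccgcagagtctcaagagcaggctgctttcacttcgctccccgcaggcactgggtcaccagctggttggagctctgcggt
No STAT, interferon response or p53 letters were in these windows of the members. The promoter of Pmaip1 was left out of the search, so this does not cover it. NF-kB letters were found in 10 of the 14 windows, among those of Bcl2, Bcl2l1, Mcl1, Bcl2a1b, Bcl2l11, Bbc3 and Bax, where 50.8% of all promoters hold them. The matches describe letters in a window and not binding.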

How the data were processed

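The authors deposited whole-number, unnormalised counts of 16 libraries in one table. The submitters' processing notes name kallisto 0.42.4, DESeq2 and the human build GRCh38, although the gene names are those of mouse. How kallisto's estimates became whole counts is not given in the sources used here. The labels name more than 1 library kit and sequencer, and describe culture of another cell type, so chemistry and read length are uncertain. Reads are PCR copies and not independent molecules, and limits from 3 counts cover counting error only.

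Of 54456 genes, 33950 had a count and 15675 passed edgeR's filterByExpr. They were fitted with edgeR 4.0.16 in R 4.3.3 (TMM, robust dispersions, common dispersion 1.52, all 4 groups in one quasi-likelihood fit, F-test), adjusted by Benjamini-Hochberg, threshold 0.05. Standard errors and 95% intervals were derived from the F statistic and are approximate. The sum of the Bcl2a1 copies was compared by exact permutation in SciPy 1.17.1. Members, lists and tests were chosen with earlier results of these data known. All members were named, with up to 2 rises and 2 falls per list and comparison and the 3 genes most like each called member. The pipeline was tested on simulated data. Recovery of changed genes was required only at a dispersion far below the 1.52 of these data. At the dispersions of these data only the number of false calls was limited. No replicate libraries were alike within sampling noise (chi-square per degree of freedom 266 to 992), and the p-values rest on library-to-library spread, part of which may be technical. Alternatives were DESeq2 1.42.0, voom with quality weights (limma 3.58.1), RLE or upper quartile scaling, dropping the filter or asking for 5 CPM in 4 libraries, fitting the compared groups alone, blocking on replicate number, the Bcl2a1 copies as 1 row, leaving out each library, and leaving out HFD VAT 1, HFD VAT 3 and lean VAT 1 together.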

Additional observations from a re-analysis of the deposited data

Results flagged for a closer look

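In 4 of the 44 sets of 4 libraries examined for the members and the Bcl2a1 sum, 1 library lay far from the other 3 by Dixon's test. For normally distributed values chance gives about 1 set in 20. The sets are not independent, since the sum contains copies that were also examined, so the 2 rates cannot be compared directly. Bcl2a1d was 150.0 CPM in lean VAT 1, against 69.6 to 77.2 CPM in the other lean VAT libraries. The sum of the Bcl2a1 copies was 251.5 CPM in lean VAT 1, against 117 to 139 CPM in the other lean VAT libraries, and that library also had 13.3% of the expected genes at 3 counts or fewer. Pmaip1 was 37.45 CPM in HFD LN 2, against 0 to 2.34 CPM in the other HFD LN libraries. The sum of the Bcl2a1 copies was 10.8 CPM in HFD LN 4, against 21.6 to 23.4 CPM in the other HFD LN libraries.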

How the results depend on the processing

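On HFD the number of members called between tissues was 4 under every setting but DESeq2, which called 5, and the Bcl2a1 copies summed to 1 row, with 2 of 8 rows called, and it was 4 to 4 when each library was left out. In lean mice it was 6 in the fit reported and 7 with limma voom. It was 2 with no filter, 1 with only the groups compared, 1 with the replicate block, and 2 to 6 when each library was left out. With the copies as 1 row, 4 of 8 rows were called. In both diet comparisons and their difference it was 0 under every setting run, 0 to 0 when each library was left out. The highest adjusted p of the HFD calls over all alternatives were 0.01186 for Bcl2a1d, 0.03218 for Bcl2a1a, 0.04759 for Bcl2a1b and 0.02944 for Bbc3. In lean mice they were 0.006071 for Bcl2a1d, 0.06309 for Bcl2a1a, 0.09122 for Bcl2a1b, 0.09679 for Bbc3, 0.1234 for Bcl2 and 0.1497 for Bcl2l11. The cause of these losses was not tested. Some of those fits had fewer libraries or more genes, while the fits with the replicate block or RLE scaling had neither. No called value changed sign.

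The fold of the summed Bcl2a1 copies was 8.31 and 8.74 with edgeR on the summed row (adjusted p = 8.05e-05 and 8.847e-05), while the permutation p of 0.0286 was 0.0571 after adjustment over the 4 comparisons. When each library was left out it was 7.24 to 8.93 for HFD VAT over HFD LN, 7.02 to 9.49 for lean VAT over lean LN, 0.935 to 1.26 for HFD over lean VAT and 0.991 to 1.23 for HFD over lean LN.

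Over all genes, DESeq2 called 2698 between tissues on HFD, 1694 in lean mice, 886 between diets in VAT, 324 in LN and 700 for the difference between diet effects, against 714, 476, 9, 0 and 3 in the fit reported. Those DESeq2 counts use its own filtering, and among the 15675 genes of the edgeR fit they were 2442, 1491, 742, 233 and 610. No filter gave 441 on HFD, 2 in VAT and 1 for the difference, and limma voom 1373 in lean mice, 32 in VAT, 3 in LN and 6 for the difference. Without the 3 VAT libraries with most missing genes, 62 were called in VAT and 46 for the difference; upper quartile scaling and the 5 CPM filter each gave 1 for the difference, and only the groups compared gave 0 in VAT. Leaving out each library gave 3 to 40 in VAT, 0 to 1 in LN and 0 to 24 for the difference.

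Same-numbered libraries did not deviate together (r = -0.0982 to 0.0446 over 6 pairs of groups). Given 4 libraries per group and a wide spread between libraries, this check cannot exclude that the numbers pair the samples. With the replicate block, 4 members were called on HFD and 1 in lean mice, and over all genes 1 in VAT and 0 for the difference. At this depth Bcl2l1 in LN and Pmaip1 are limited by the spread between libraries, with 3 libraries each at 3 counts or fewer.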
